A study of Mus musculus with 16 samples.

Results

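The 5 ephrin-A ligand genes *Efna1*, *Efna2*, *Efna3*, *Efna4* and *Efna5* were followed in single cells of mouse dorsal root ganglia. They were chosen by family, as 5 of the 49671 genes counted, and not by their values. Ephrin-A ligands are held on the outer cell membrane by a lipid anchor and bind EphA receptors on neighboring cells. The receptor then signals into its own cell, usually repelling a growing axon, and the ligand can signal back into the cell that carries it, through co-receptors. A cell that has both ligand and receptor can also silence its own receptors. In sensory and motor neurons the family is known for its part in the choice of axon paths, and proprioceptors are the sensory neurons that report muscle length and tension.

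Cells were taken at 2 ages. The e15.5 embryos carried PvtdTom, a transgene that places tdTomato under the *Pvalb* (Pv) promoter, and gave 10 libraries. The p1 pups gave 6 libraries whose labels name both Trpv1Cre; PvFlp; Ai65 and PvCre; Ai14 for every library, that is a tdTomato reporter opened by Cre and Flp together or by Cre alone. The labels name no treatment. According to the study's methods tdTomato+ cells were sorted by flow cytometry at e15.5 and picked by hand at p1, while the labels name flow cytometry for both ages. The study took more p1 cells from Trpv1Cre; PvFlp; Ai65 than from PvCre; Ai14, and describes the former as labeling proprioceptors of back muscles. So the mix of muscle types may also differ between the ages. Age, reporter line, isolation and this mix therefore cannot be told apart. The segmental level and line of each library, and the number of animals behind it, are not given in the labels. The study's methods give the p1 cells as 96 from each of 6 combinations of line and segment, counting 2 Trpv1Cre lines separately. The p1 libraries, also 6 with 96 wells each, may therefore be different conditions and not replicates. Leaving out a p1 library may then remove a whole condition. The e15.5 cells came from thoracic and lumbar ganglia, so those libraries may differ in segment. P-values thus measure the spread between libraries, which may be partly technical and partly due to line, segment and mix of cells.

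Each library held 96 wells, and the same 96 well positions recur in every library by design. Wells with at least 10000 unique molecular identifiers (UMIs) were used, 871 of 960 at e15.5 and 369 of 576 at p1. Libraries held 3701900 to 9299431 UMIs at e15.5 and 386517 to 8814472 at p1, where library 3 kept only 12 wells. Wells were put into classes by marker genes. Proprioceptors, with neuronal transcripts and *Pvalb*, *Runx3*, *Etv1* and *Ntrk3*, made up 335 wells at e15.5 and 350 at p1. The labels describe all wells as proprioceptive neurons, but at e15.5 another 385 wells were classed as connective tissue: they had a median of 26662.5 collagen counts per 1000000 UMIs (CPM) and 67.4 CPM of the neuronal markers. A further 43 wells at e15.5 and 3 at p1 were sensory neurons with few proprioceptor transcripts, 2 wells at p1 were connective tissue, and 108 and 14 wells fitted no class. The study itself kept only part of its e15.5 cells as proprioceptors. It described the other clusters by mechanoreceptor markers, partly with proliferation markers, or as neurons contaminated with glial transcripts, and named none as connective tissue. How its clusters match the present classes was not tested. The median mitochondrial share of proprioceptors was 5.11% at e15.5 and 10.6% at p1, and their median depth was 113110.0 and 57076.5 UMIs. In 45 wells at e15.5 and 124 at p1 the summed neuronal markers lay between 500 and 2000 CPM, around the limit of 1000 CPM.

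*Efna1*, *Efna3* and *Efna4* are neighbors on the minus strand of chromosome 3 in GRCm38, at 89271733 to 89281142, 89313899 to 89322965 and 89333390 to 89338028. Between *Efna1* and *Efna3* lie 32.8 kb, and between *Efna3* and *Efna4* 10.4 kb. *Efna2* (80179482 to 80190010, plus strand) is on chromosome 10 and *Efna5* (62604184 to 62881317, minus strand) on chromosome 17. The *Efna5* gene spans 277 kb, against 4.64 to 10.5 kb for the other 4 genes. Antisense genes overlap *Efna3* (*Gm15998*, 0 UMIs in all wells used) and *Efna4* (*4731419I09Rik*, 20 UMIs, against 296 for *Efna4*). Whether counting used the strand is not stated. Reads from the stretch that *Efna4* and its antisense partner share, 89337850 to 89338028, therefore cannot be told apart. This short stretch lies at the start of both genes.

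The 250 bases before the start of *Efna2*, *Efna3* and *Efna5*, the members with most UMIs, are shown because the comparison of the ages turns on them. RefSeq sequences (GRCm38.p6) are written 5′ to 3′ on the strand of the gene, with each GC box, GGGCGG on either strand, in capitals. For *Efna3* the window belongs to the first of its 2 listed starts.
Efna2, chr10:80179232-80179481, plus strand: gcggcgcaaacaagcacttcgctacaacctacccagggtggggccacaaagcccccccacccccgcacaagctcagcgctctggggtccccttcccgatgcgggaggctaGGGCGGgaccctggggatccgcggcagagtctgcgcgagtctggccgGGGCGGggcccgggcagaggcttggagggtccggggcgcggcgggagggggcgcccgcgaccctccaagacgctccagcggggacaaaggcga
Efna3, chr3:89322940-89323189, minus strand: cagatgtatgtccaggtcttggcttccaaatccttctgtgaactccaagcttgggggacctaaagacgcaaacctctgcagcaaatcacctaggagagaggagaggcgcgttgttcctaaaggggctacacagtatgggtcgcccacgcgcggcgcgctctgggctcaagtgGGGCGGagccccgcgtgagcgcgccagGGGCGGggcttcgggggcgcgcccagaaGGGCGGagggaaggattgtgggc
Efna5, chr17:62881318-62881567, minus strand: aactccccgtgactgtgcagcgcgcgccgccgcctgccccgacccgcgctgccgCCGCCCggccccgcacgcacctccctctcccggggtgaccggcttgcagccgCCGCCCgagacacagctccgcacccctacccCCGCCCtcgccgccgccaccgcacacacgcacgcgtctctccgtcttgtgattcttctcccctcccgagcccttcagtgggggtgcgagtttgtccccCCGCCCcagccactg
The windows held 2, 3 and 4 GC boxes, and 32.7% of 32851 mouse promoters of this length held at least 1. They held 25, 19 and 32 CpG dinucleotides, where the median promoter had 6. The Runx core TGTGGT, in 14.05% of all promoters, and the TATA box TATAAA, in 12.4%, were in none of these 3 windows on either strand. The windows of the second *Efna3* start (chr3:89321769-89322018) and of *Efna4* each held 1 Runx core. All of these matches are a description of letters.

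Proprioceptors at e15.5 had mainly *Efna3*, the ligand ephrin-A3. Their pooled level was 110.5 CPM of *Efna3*, 32.9 CPM of *Efna2* and 29.7 CPM of *Efna5*, while *Efna1* and *Efna4* stood at 1.22 and 1.92 CPM. CEL-Seq2 tags 1 end of each transcript, so these levels are counts of molecules and not scaled by gene length. Of all ephrin-A UMIs in a library of e15.5 proprioceptors, *Efna3* took 59.3% to 70.6% (10 libraries). In connective tissue of the same age *Efna5* took 56.7% to 83.0% (9 libraries), and in other sensory neurons 58.2% to 79.0% (3 libraries). In p1 proprioceptors *Efna5* took 37.1% to 75.4% and *Efna3* 15.9% to 55.6% (6 libraries). The plot of shares shows the *Efna3* part shrinking and the *Efna5* part widening from the first bar to each of the others.

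**Figure D1:**
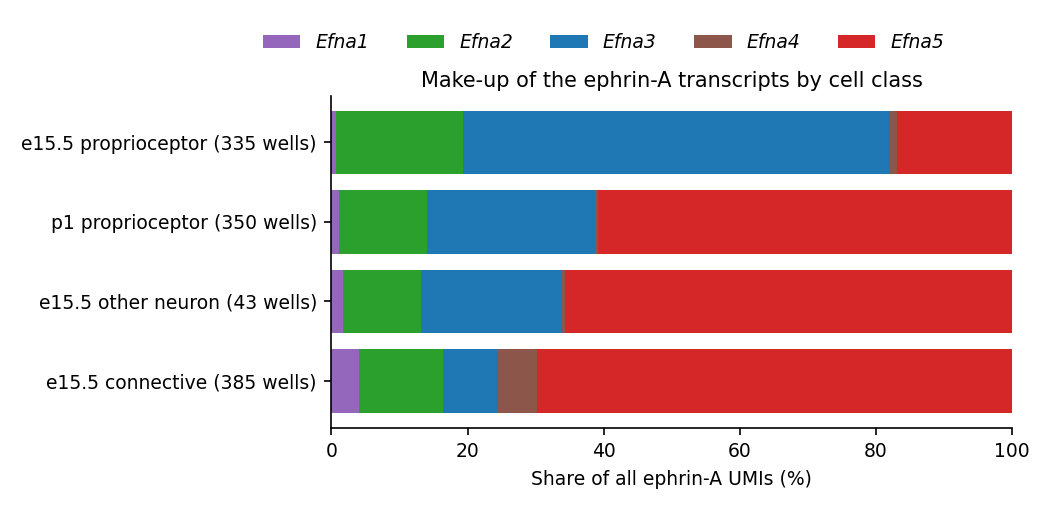
Horizontal bars give the share (%) of all ephrin-A UMIs that came from each of the 5 genes, pooled over the wells of a class (335 e15.5 proprioceptors, 350 p1 proprioceptors, 43 e15.5 other sensory neurons, 385 e15.5 connective tissue wells). *Efna3* (blue) fills most of the bar in e15.5 proprioceptors, and *Efna5* (red) most of each other bar.

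First, proprioceptors were compared with connective tissue at e15.5. Here *Efna3* was 4.78-fold higher in proprioceptors and *Efna1*, *Efna4* and *Efna5* were 9.14-, 8.08- and 8.33-fold lower. In proprioceptors *Efna3* ranged from 75.1 to 138.6 CPM over 10 libraries (median 104.7), and in connective tissue from 13.8 to 34.1 CPM over 9 libraries (median 19.0). The ranges did not overlap, and *Efna3* was higher in proprioceptors in 9 of 9 libraries that held both classes (log2 fold change 2.26 ± 0.15 (SE), edgeR adjusted p = 2.64e-14). *Efna5*, the ligand ephrin-A5, ranged from 5.60 to 48.7 CPM in proprioceptors (median 20.6) and from 134.6 to 338.2 in connective tissue (median 183.5). Again the ranges did not overlap, and all 9 libraries with both classes went the same way (log2 fold change -3.06 ± 0.34, edgeR adjusted p = 1.18e-09).

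*Efna1* and *Efna4* were sparse in proprioceptors. *Efna1* had 47 UMIs in 335 wells, with 0 to 2.17 CPM per library (median 1.11), against 4.81 to 22.3 CPM (median 11.01) in connective tissue (log2 fold change -3.19 ± 0.38, edgeR adjusted p = 7.74e-09). *Efna4* had 74 UMIs, with 0 to 4.64 CPM per library (median 1.78), against 10.1 to 25.1 CPM (median 16.4) (log2 fold change -3.01 ± 0.30, edgeR adjusted p = 1.05e-10). For both genes the classes did not overlap and all 9 libraries with both classes had less in proprioceptors. In proprioceptors of libraries 3 and 4 neither gene had a UMI. Pooled *Efna1*, *Efna4* and *Efna5* in proprioceptor wells stood at 11.4%, 12.6% and 15.8% of their level in connective tissue. Collagen transcripts stood at 0.409%, but their level was used to sort the wells into these classes, so this share was bounded in advance. Carry-over of transcripts between wells was not tested.

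*Efna2* gave no such contrast. It ranged from 27.2 to 38.0 CPM in proprioceptors (median 32.2) and from 16.7 to 43.7 CPM in connective tissue (median 28.7). The ranges overlapped, 4 of 9 libraries were higher in proprioceptors, and the log2 fold change was -0.03 ± 0.16 (edgeR adjusted p = 0.865). Altogether 4 of the 5 ligands passed the test, 1 higher and 3 lower, and so did 77.7% of all 15008 genes tested (38.3% higher, 39.4% lower). The median log2 fold change was -3.01 over the ligands and -0.02 over all genes.

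**Figure D2:**
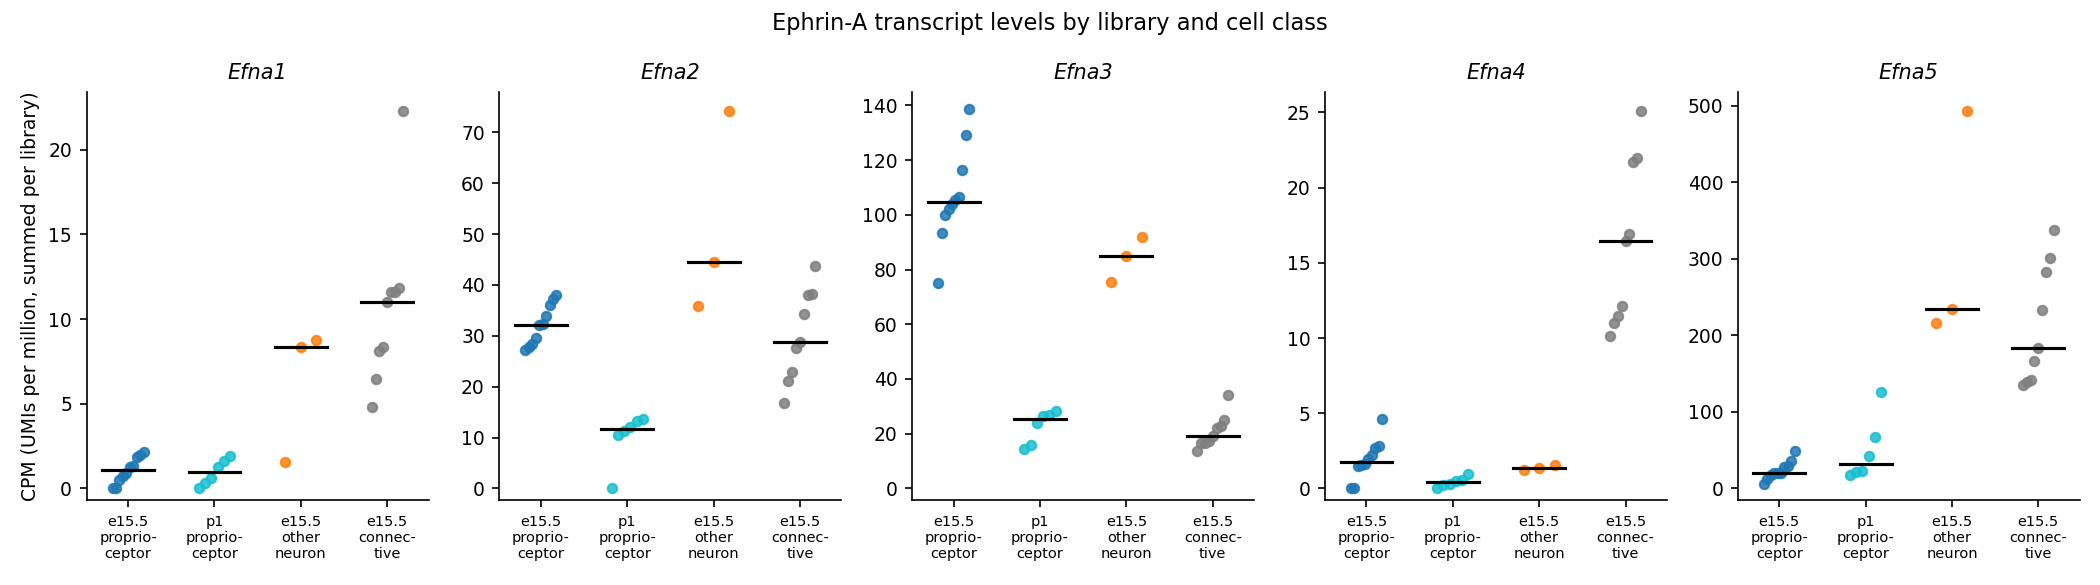
Each point is the level of a gene in 1 library (CPM, UMIs per 1000000 UMIs summed over its wells of a class, at least 5 wells), for 10 libraries of e15.5 proprioceptors, 6 of p1 proprioceptors, 3 of e15.5 other sensory neurons and 9 of e15.5 connective tissue; lines are medians and each panel has its own linear axis. *Efna3* lies at 75.1 CPM or higher in every library of e15.5 proprioceptors and at 34.1 CPM or lower in those of p1 proprioceptors and connective tissue.

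Connective tissue wells were divided by tendon and cycling markers. In 73 wells with at least 200 CPM of tendon markers *Efna5* stood at 123.5 CPM, *Efna3* at 38.6 CPM and *Efna4* at 22.0 CPM. In 87 wells with cycling but no tendon markers these levels were 203.2, 12.7 and 13.6 CPM, and in the remaining 225 wells 200.9, 20.7 and 13.9 CPM. *Efna1* was at 16.4 CPM in the cycling wells, against 8.72 and 8.51 CPM in the other 2 groups. Over libraries with at least 5 wells of a group, *Efna3* was at 25.3 to 97.3 CPM in tendon wells (5 libraries) and at 5.28 to 20 CPM in cycling wells (7 libraries), which did not overlap, while the remaining wells spanned 7.87 to 47.8 CPM (8 libraries) and overlapped both. The *Efna1* ranges of all 3 groups overlapped, at 4.86 to 27.4 CPM in tendon wells, 3.22 to 50.4 CPM in cycling wells and 3.99 to 13.9 CPM in the remaining wells, and so did those of *Efna4* (0 to 37.9, 7.92 to 18.5 and 7.02 to 22.5 CPM). The *Efna5* ranges also overlapped, at 51.6 to 234.0 CPM in tendon wells, 109.2 to 385.3 CPM in cycling wells and 136.9 to 373.3 CPM in the remaining wells. No test was run on these groups.

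Next, proprioceptors were set against the other sensory neurons of the ganglion at e15.5, for which 3 libraries held at least 5 wells (11, 12 and 6 wells in libraries 1, 3 and 9). *Efna5* was 11.4-fold lower in proprioceptors. The other neurons had 234.6, 216.5 and 493.6 CPM of *Efna5*, and the highest library of proprioceptors had 48.7 CPM, so the groups did not overlap (log2 fold change -3.51 ± 0.41, edgeR adjusted p = 1.56e-07). *Efna1* was 5.03-fold lower in proprioceptors (log2 fold change -2.33 ± 0.57, edgeR adjusted p = 0.00439). Its levels in the other neurons were 8.38, 8.77 and 1.56 CPM, resting on 7, 13 and 1 UMIs, and the last lay within the range of proprioceptors. Without e15.5 library 1 or library 3 the *Efna1* difference no longer passed (edgeR adjusted p = 0.0570 and 0.150).

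*Efna3* was high in both kinds of neuron. The other neurons had 84.98, 75.5 and 91.9 CPM, inside the range of proprioceptors over all libraries. In each of these 3 libraries proprioceptors had the higher level, but the log2 fold change of 0.45 ± 0.20 did not pass (edgeR adjusted p = 0.153). *Efna2* stood at 74.2, 44.5 and 35.8 CPM in the other neurons, and the difference of -0.58 ± 0.22 did not pass (edgeR adjusted p = 0.0842). It passed with the library as a block, which pairs classes of 1 library (-0.73, edgeR adjusted p = 0.0499), in wells of at least 20000 UMIs (-0.72, edgeR adjusted p = 0.0222), with library size alone as scaling (-0.67, edgeR adjusted p = 0.0305), without e15.5 library 9 (-0.78, edgeR adjusted p = 0.0417) and with DESeq2 (-0.68, adjusted p = 0.0158), and was -0.21 without e15.5 library 1 (edgeR adjusted p = 0.764). *Efna4* was at 1.20 to 1.56 CPM in the other neurons (log2 fold change 0.61 ± 0.70, edgeR adjusted p = 0.680). In this comparison 2 of the 5 ligands passed, both lower in proprioceptors, beside 13.2% of all genes (7.98% higher, 5.21% lower). Of all calls here 60.5% were higher, and 48.6% with library size alone as scaling or 46.7% with DESeq2.

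Among these 43 neurons, 19 had more mechanoreceptor than nociceptor marker transcripts, and in them *Efna5* was at 340.4 CPM (exact Poisson interval 320.2 to 361.6, counting error only). In the 24 wells where nociceptor markers were higher it was at 117.3 CPM (101.7 to 134.6). *Efna2* was at 40.0 and 55.2 CPM and *Efna3* at 86.5 and 74.9 CPM in the same wells. At least 5 mechanoreceptor-type wells were in libraries 3 and 9, with 312.8 and 506.8 CPM of *Efna5*, and at least 5 nociceptor-type wells in libraries 1 and 3, with 173.9 and 101.9 CPM. Library 3 alone held at least 5 of each. In every library with wells of both kinds *Efna5* was higher in the mechanoreceptor-type wells, as in library 1 (342.4 CPM in 3 wells against 173.9 CPM in 8 wells). Most of these libraries held very few wells of a kind, down to 1, and the contrast was not tested. The mechanoreceptor-type wells had a median of 185640 UMIs and the others 67225.

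The other sensory neurons also differed from connective tissue. *Efna3* was 3.50-fold higher (log2 fold change 1.81 ± 0.21, edgeR adjusted p = 1.14e-08) and *Efna4* 12.3-fold lower (-3.62 ± 0.61, edgeR adjusted p = 7.47e-06), with no overlap between libraries. After thinning each well to 10000 UMIs the *Efna4* difference was -2.42 and no longer passed (edgeR adjusted p = 0.0796). *Efna2* was 1.46-fold higher (0.54 ± 0.23, edgeR adjusted p = 0.0405), with overlapping ranges. That call was lost without e15.5 library 1, 3, 4 or 10 (edgeR adjusted p = 0.601, 0.0722, 0.0704 and 0.0523). It was also lost without wells holding *Xist* and Y-linked UMIs (0.51, edgeR adjusted p = 0.0517). *Efna5* was high in both, at 0.45 ± 0.44 (edgeR adjusted p = 0.387), and *Efna1* was at -0.86 ± 0.55 (edgeR adjusted p = 0.176). Of the 5 ligands 3 passed, 2 higher and 1 lower, beside 62.2% of all genes (29.0% higher, 33.2% lower). The plot of fold changes shows *Efna3* to the right of 0 against connective tissue for both kinds of neuron, and *Efna5* far to the left for proprioceptors against either class.

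**Figure D3:**
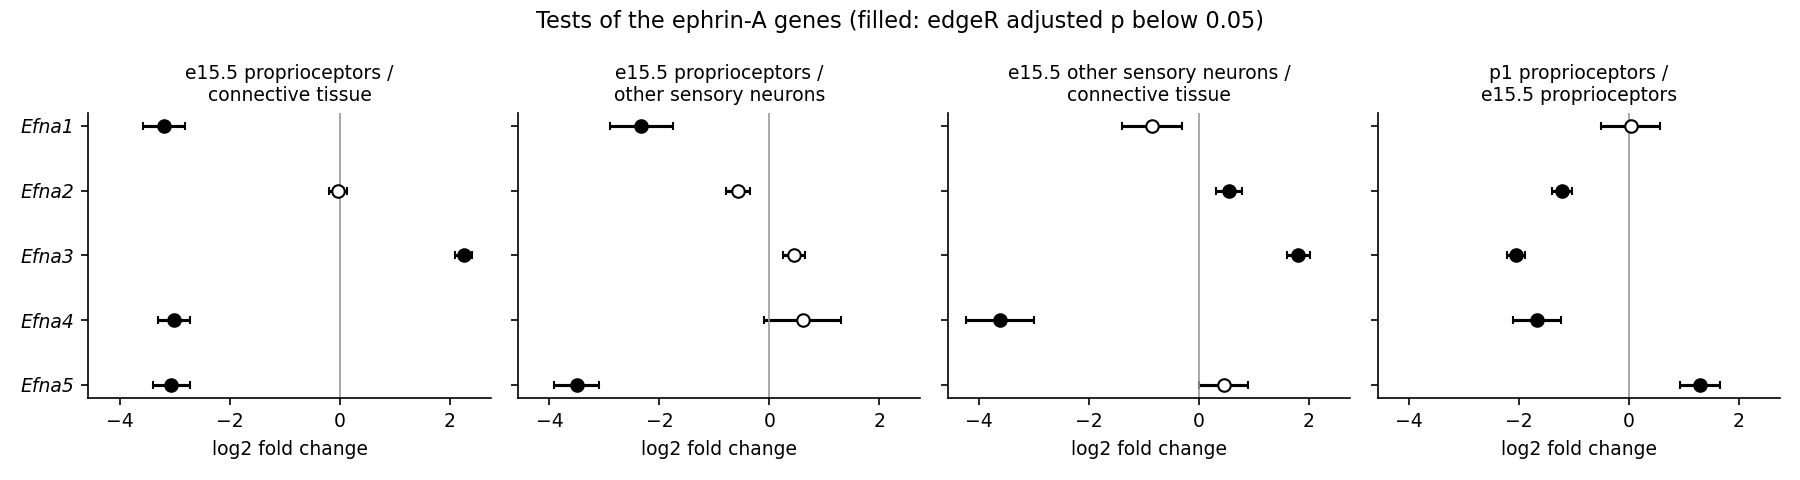
Log2 fold changes of the 5 genes in 4 comparisons, with standard errors as bars. Filled points passed (edgeR adjusted p below 0.05), open points did not; *Efna3* is 2.26 and *Efna5* -3.06 in the first panel.

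Proprioceptors of the 2 ages were then compared. *Efna3* was 4.13-fold and *Efna2* 2.32-fold lower at p1, and *Efna5* was 2.46-fold higher, a difference that passed only with p1 library 2 included. *Efna3* was at 24.0, 26.5, 28.3, 14.6, 26.7 and 15.8 CPM in p1 libraries 1 to 6, all below the lowest e15.5 library at 75.1 CPM (log2 fold change -2.05 ± 0.17, edgeR adjusted p = 1.62e-11). *Efna2* was at 11.2, 13.3, 0, 12, 13.6 and 10.5 CPM, all below the lowest e15.5 library at 27.2 CPM (log2 fold change -1.21 ± 0.18, edgeR adjusted p = 1.59e-06). The 0 in library 3 comes from 176499 UMIs, which allow up to 17 CPM (3 counts).

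*Efna5* was at 21.1, 125.6, 22.7, 42.2, 66.8 and 18.1 CPM in the p1 libraries, against 5.60 to 48.7 CPM at e15.5. The ages overlapped: libraries 2 and 5 were above every e15.5 library and the other 4 within their range. The log2 fold change was 1.30 ± 0.36 (edgeR adjusted p = 0.00291), and without p1 library 2 it was 0.72 (edgeR adjusted p = 0.0817). Library 2 may be a combination of line and segment of its own, so leaving it out may also change the mix of cells. *Efna4* was lower at p1, with 13 UMIs in 350 wells and 0 to 0.931 CPM per library (log2 fold change -1.68 ± 0.44, edgeR adjusted p = 0.00182), but not when wells were thinned to 10000 UMIs (edgeR adjusted p = 0.217). *Efna1* had 26 UMIs and 0 to 1.91 CPM (0.04 ± 0.54, edgeR adjusted p = 0.962). Of the 5 ligands 4 passed, 1 higher and 3 lower, beside 54.5% of all genes (27.3% higher, 27.2% lower; 50.05% of calls were higher). With library size alone as scaling the median of all genes moved from -0.02 to -0.25 and 34.1% of calls were higher, and the directions of *Efna2*, *Efna3*, *Efna4* and *Efna5* stayed as given. The mitochondrial share and the depth given above also differed between the ages; their part in these differences was not tested. Glial transcripts (at least 500 CPM) were in 17.3% and 19.1% of proprioceptor wells, and the same 4 ligands passed without those wells.

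At the level of wells, *Efna3* was the ligand found in most proprioceptors at e15.5. After thinning each well to 10000 UMIs, 60.0% of e15.5 proprioceptors (201 of 335) and 15.4% of p1 proprioceptors (54 of 350) had an *Efna3* UMI. The share per library was 50% to 66.7% at e15.5 (median 58.0%) and 9.09% to 19.5% at p1 (median 13.4%), without overlap. The difference was -44.2 percentage points (exact two-sided permutation test over 10 and 6 libraries, p = 0.000125, the smallest it can give; adjusted over the 5 genes p = 0.000624). *Efna2* was found in 23.6% and 10.3% of wells, a mean difference of -14.4 points over libraries that overlapped (exact permutation adjusted p = 0.0378). That call was lost without any 1 of e15.5 libraries 2, 4, 6, 7 and 8 or p1 libraries 2, 3 and 6, with exact permutation adjusted p from 0.0519 to 0.0932. For *Efna5* the shares were 17.3% and 27.1%, and the difference of 10.98 points did not pass (exact permutation adjusted p = 0.0841). *Efna1* and *Efna4* had a UMI in 0.597% and 2.39% of thinned wells at e15.5 and in 0.857% and 0.571% at p1, and differed by 0.457 and -1.33 points (exact permutation adjusted p = 0.411 and 0.392). In connective tissue, at the same thinned depth, *Efna5* was found in 65.5% of wells and *Efna3* in 17.7%, and in other sensory neurons in 79.1% and 58.1%.

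Without thinning, *Efna3* was found in 97.0% of e15.5 and 57.1% of p1 proprioceptors, *Efna2* in 83.6% and 49.7%, and *Efna5* in 69.0% and 64.3%, at median depths that differ as given above. *Efna5* was spread unevenly over cells. The 10% of proprioceptor wells with most *Efna5* held 57.8% of its UMIs at e15.5 and 68.6% at p1, and the highest single wells had 184 and 70 UMIs. For *Efna3* the upper 10% of wells held 25.5% at e15.5 and 47.5% at p1, and for *Efna2* 28.9% and 41.8%. These shares were taken without thinning, so they depend on depth and on the UMIs found. *Efna3* had 4248 UMIs at e15.5 and 615 at p1. In the plot of single wells the whole *Efna3* curve lies further left at p1, while the *Efna5* curves of both ages start alike and part in the upper range.

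**Figure D4:**
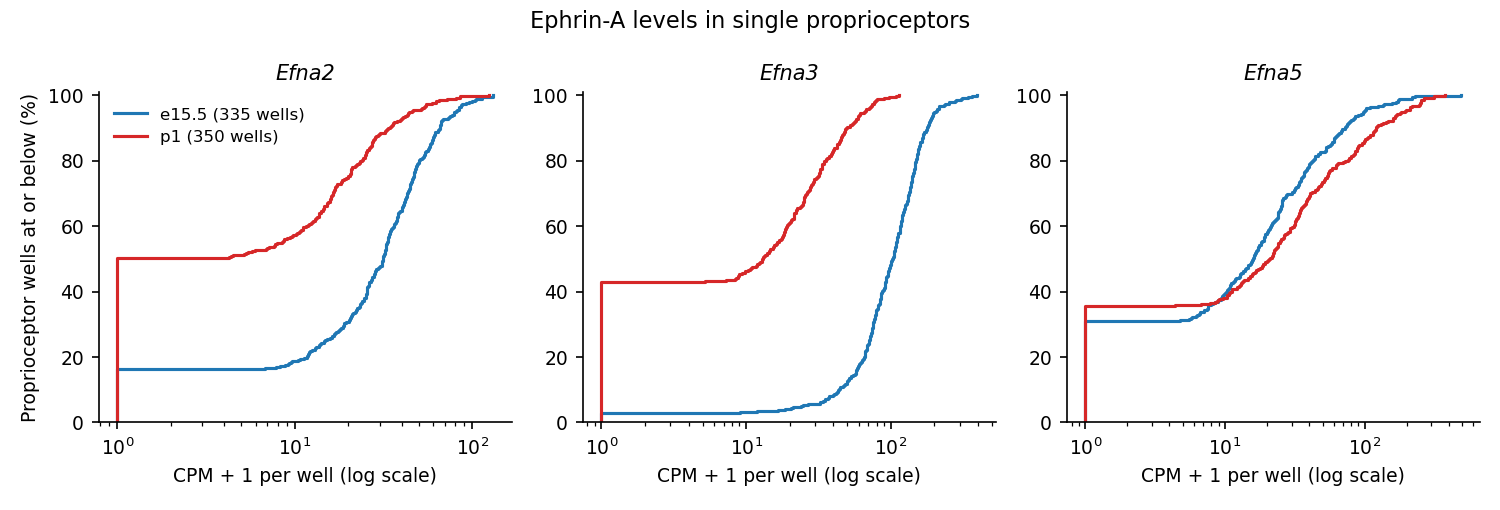
Cumulative share (%) of proprioceptor wells at or below a level, for 335 e15.5 and 350 p1 wells, against CPM + 1 on a log axis; the first step is the share of wells with no UMI. At p1, 42.9% of wells had no *Efna3* UMI against 2.99% at e15.5, while 35.7% and 31.0% had no *Efna5* UMI.

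Ligands were also counted in the same wells. In thinned e15.5 proprioceptors *Efna3* was found in 62.0% of wells with and 59.4% without *Efna2*, and at p1 in 19.4% and 14.97%. In thinned e15.5 proprioceptors *Efna5* was found in 15.9% of wells with and 19.4% of wells without *Efna3*, and in 26.6% of wells with and 14.5% without *Efna2*. At p1 the shares for *Efna5* were 27.8% and 27.0% with and without *Efna3*, and 16.7% and 28.3% with and without *Efna2*, the other way round than at e15.5. These counts share libraries and depth and were not tested.

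The study clustered p1 proprioceptors and assigned the clusters to hindlimb and back muscles by the mouse line and segment of their cells. As markers it gives *Gabrg1*, a subunit of GABA receptors, for hindlimb and *Tox*, a nuclear protein, for back. The study also located these transcripts, and those of *Efna5* and *Epha3*, in neurons traced from such muscles. It chose *Efna5* and *Epha3* on these same cells, and reports that *Epha4*, *Epha5* and *Epha7* also differed between its clusters at both ages. The contrast of these genes between such wells is therefore not independent evidence. Proprioceptors with at least 2 UMIs of the pair were called *Gabrg1*-leading or *Tox*-leading by the larger count. At e15.5 52 wells were *Gabrg1*-leading and 134 *Tox*-leading, and at p1 82 and 129. At p1 *Efna5* was 6.23-fold higher in *Gabrg1*-leading wells (log2 fold change 2.64 ± 0.43, edgeR adjusted p = 0.00489). It was at 20.3, 155.2, 161.1 and 152.1 CPM in *Gabrg1*-leading wells of libraries 1, 2, 4 and 5, and at 27.4, 27.3, 19.3 and 9.01 CPM in *Tox*-leading wells of the same libraries. So 3 of 4 libraries were higher in *Gabrg1*-leading wells and library 1, with 9 such wells, was not. The call was lost with the library as a block (log2 fold change 2.33, edgeR adjusted p = 0.145) and without library 2 (2.55, edgeR adjusted p = 0.0680), which held 49 of the 82 *Gabrg1*-leading wells.

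At e15.5 *Efna5* was at 38.3, 34.1, 25.4 and 108.0 CPM in *Gabrg1*-leading wells of libraries 7 to 10, and at 46.1, 24.9, 26.9 and 22.5 CPM in their *Tox*-leading wells. So 2 libraries were higher and 2 lower, and the log2 fold change of 1.11 ± 0.33 did not pass (edgeR adjusted p = 0.0739). It was 0.34 without e15.5 library 10 (edgeR adjusted p = 0.644). In that library 1 well, at 489.1 CPM, held 184 of the 211 *Efna5* UMIs of the *Gabrg1*-leading wells. No fit was run with that well alone left out. The *Efna5* difference passed with no filter on low counts (1.11, edgeR adjusted p = 0.0123), without glial wells (1.55, edgeR adjusted p = 0.0197), without wells holding *Xist* and Y-linked UMIs (1.35, edgeR adjusted p = 0.0308) and without e15.5 library 7 (1.34, edgeR adjusted p = 0.0389) or 9 (1.37, edgeR adjusted p = 0.0486). The difference between the ages was 1.53 ± 0.59 and did not pass (edgeR adjusted p = 0.467). None of the ligands passed at e15.5, where 4.35% of all genes did (2.34% higher, 2.01% lower), and 1 of the 3 tested ligands passed at p1, where 0.836% of all genes did (0.558% higher, 0.279% lower). At e15.5 the unadjusted p was under 0.05 for 1 ligand (*Efna5*, 0.00412), and none passed with DESeq2.

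*Efna2* and *Efna3* did not pass between these wells at either age. *Efna3* differed by 0.01 ± 0.14 at e15.5 (edgeR adjusted p = 0.992) and 0.37 ± 0.24 at p1 (edgeR adjusted p = 0.865), and *Efna2* by 0.18 ± 0.20 and 0.04 ± 0.36 (edgeR adjusted p = 0.731 and 1.000). *Efna1* and *Efna4* were too sparse to be tested. The *Efna3* levels by library were 81.7 to 121.9 CPM in *Gabrg1*-leading and 79.4 to 129.8 CPM in *Tox*-leading wells at e15.5, and 18.5 to 29.3 and 13.3 to 27.8 CPM at p1. So the lower *Efna3* of p1 was present in both kinds of wells.

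**Figure D5:**
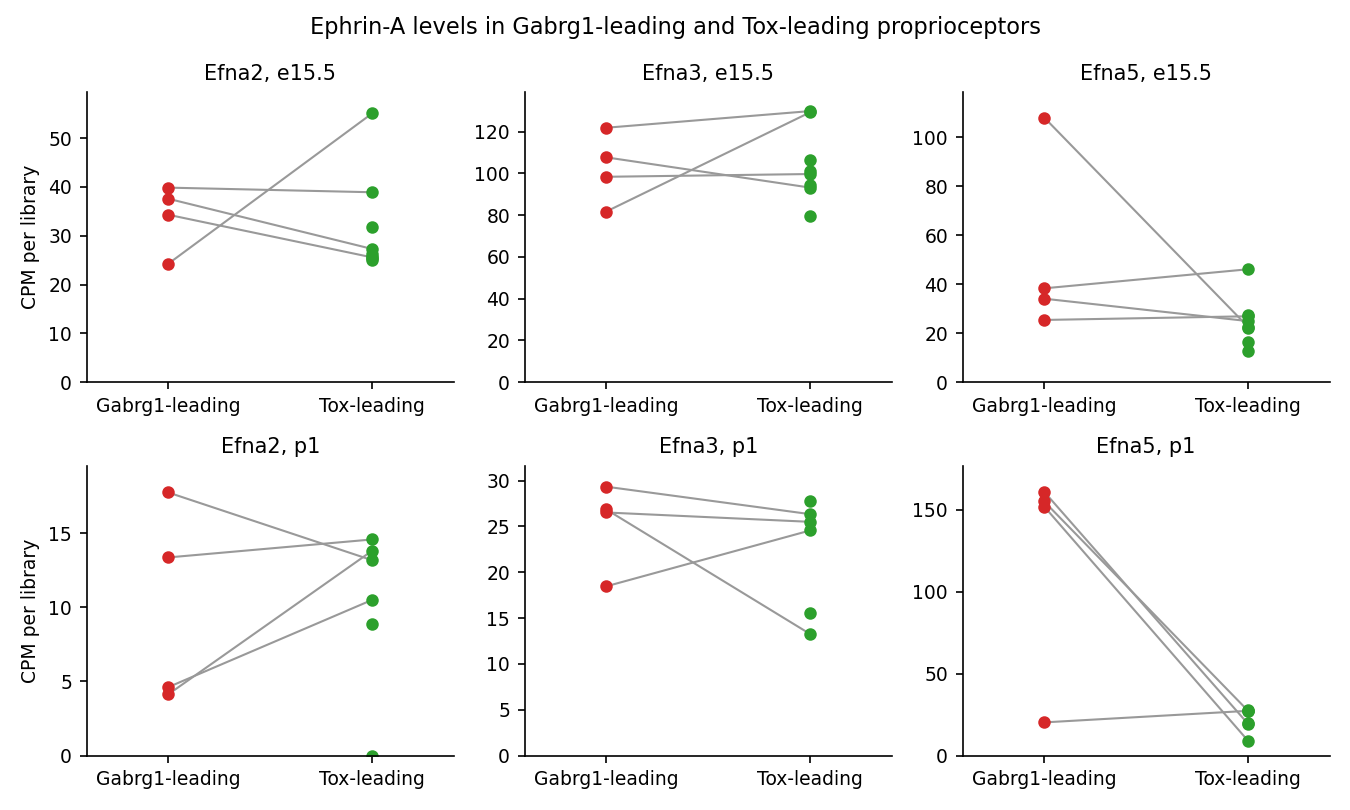
Levels (CPM) of *Efna2*, *Efna3* and *Efna5* per library in *Gabrg1*-leading and *Tox*-leading proprioceptors at e15.5 (upper row) and p1 (lower row), with lines joining wells of 1 library and axes from 0. For *Efna5* at p1, libraries 2, 4 and 5 lie at 152.1 to 161.1 CPM in *Gabrg1*-leading wells, and library 1 at 20.3 CPM.

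The p1 libraries with most *Efna5* also had the largest shares of *Gabrg1*-leading wells. These were 62.8% of proprioceptors in library 2, 24.2% in library 5, and 1.92% to 10.98% in the other 4. These wells held 73.4% of the *Efna5* UMIs of p1 proprioceptors and 33.9% of those at e15.5. Without e15.5 library 10 the e15.5 share was 24.4% (176 of 722 UMIs). The p1 share rested on library 2, where it was 93.7%, and was 47.9% (323 of 674 UMIs) without it. It was 79.6% in library 5, 60.0% in library 4, 12.1% in library 1 and 0 in libraries 3 and 6. In the other proprioceptor wells *Efna5* stood at 18.7 to 32.7 CPM per library at p1 (median 21.0), and at 5.60 to 35.2 CPM at e15.5 (median 20.02), so outside *Gabrg1*-leading wells the p1 range lay within that of e15.5. These other wells include those with neither gene leading, which at p1 had a median of 29196 UMIs, against 75885.5 in *Gabrg1*-leading wells. Some may have been too shallow to be called, and what this adds to the contrast was not tested.

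The receptors and partners of the ligands were read from a list of 40 genes. Between proprioceptors and connective tissue at e15.5, 12 of 38 tested genes were higher (38.3% of all genes were), 22 lower (39.4%) and 4 did not pass (list median log2 fold change -0.59, all genes -0.02). Of the 8 EphA receptors tested, *Epha6* (log2 fold change 5.52), *Epha10* (5.28) and *Epha7* (1.20) were higher in proprioceptors, *Epha2* (-4.50), *Epha8* (-3.07), *Epha3* (-3.04) and *Epha4* (-2.31) were lower, and *Epha5* was at -0.23 and did not pass. The other large differences were in *Vav3*, an exchange factor that acts below Eph receptors (3.45), *Ephb4*, a receptor of B ligands (-5.50), and *Mmp14*, a membrane protease (-5.11). The 3 proteases that the list holds for the cutting of ephrin-A ligands or their complexes (*Adam10*, *Mmp2*, *Mmp14*) were lower in proprioceptors.

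Against other sensory neurons, 6 of 38 list genes were higher in proprioceptors (7.98% of all genes were), 9 lower (5.21%) and 23 did not pass (median 0.04, all genes 0.09). Of the EphA receptors *Epha7* (2.71), *Epha4* (2.53), *Epha6* (2.28) and *Epha10* (1.92) were higher, none lower, and *Epha2* (3.21), *Epha3* (1.27), *Epha5* (1.03) and *Epha8* (-1.85) did not pass. All 4 co-receptors of reverse signaling on the list were lower in proprioceptors, led by *Ntrk2* (-6.01), *Ret* (-5.51) and *Gfra1* (-4.48), which also mark mechanoreceptors and other neuron types. Other sensory neurons against connective tissue had 11 list genes higher (29.0% of all genes were), 17 lower (33.2%) and 10 that did not pass (median -0.46, all genes -0.10). *Ret* (6.66), *Epha10* (3.35) and *Ngfr* (3.30) led the higher genes and *Epha2* (-7.71), *Mmp2* (-5.37) and *Epha4* (-4.84) the lower ones. Of the other receptors *Epha6* (3.24) was higher, *Epha3* (-4.31) and *Epha7* (-1.52) lower, and *Epha5* (-1.26) and *Epha8* (-1.23) did not pass.

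From e15.5 to p1, 8 of 38 list genes were higher (27.3% of all genes were), 11 lower (27.2%) and 19 did not pass (median -0.17, all genes -0.02). *Sipa1l1*, a partner of EphA4 (1.94), *Epha6* (1.87), *Epha4* (1.59) and *Epha5* (0.82) were higher at p1. *Mmp2* (-2.60), *Efnb3*, a B ligand (-1.94), *Nck2*, an adaptor (-1.69), and *Epha7* (-1.09) were lower. *Epha2* (-0.31), *Epha3* (-0.18), *Epha8* (0.14) and *Epha10* (0.01) did not pass. Thus receptors moved in both directions while *Efna2* and *Efna3* were both lower. Between *Gabrg1*-leading and *Tox*-leading wells *Epha3* (-2.16) and *Epha7* (-1.83) were lower in the former at e15.5, 2 of 33 list genes (2.01% of all genes were lower). At p1 *Epha3* (-1.44) and *Epha5* (-1.38) were lower, 2 of 30 (0.279% of all genes). The study named *Epha3*, *Epha5* and *Epha7* on these same cells, so these counts are not independent evidence. At e15.5 *Epha4* (-0.86), *Epha5* (-0.48), *Epha10* (-0.35) and *Epha6* (-0.32) did not pass, and at p1 *Epha7* (-1.43), *Epha4* (-0.40), *Epha10* (-0.34) and *Epha6* (-0.03) did not pass.

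Finally, genes that varied with each ligand from well to well were looked for within libraries. Correlations were taken on log2(CPM + 10) over proprioceptor wells and averaged, with equal weight, over libraries with at least 10 wells. They are descriptions, and wells of 1 library share depth and preparation. *Efna5* at e15.5 varied most like *Nr2f1* (mean r 0.38 over 9 libraries), *Nfia*, *S100b*, *Klhl5*, *Kcna2*, *Mab21l2*, *Igfbp4* and *Spata13* (0.33 to 0.35). At p1 it varied most like *Vstm2b* (0.38 over 6 libraries), *Mrps30*, *Tspyl5*, *Rnase4*, *Tmeff2*, *Plxna4*, *Tgfb2* and *Tac1* (0.30 to 0.31). With wells thinned to 10000 UMIs these genes had a mean r of 0.17 to 0.26 at e15.5 and 0.07 to 0.25 at p1. No gene was on both lists, and over all genes compared the median r with *Efna5* was -0.02 at e15.5 and 0.06 at p1. Single libraries could lie far from these means, as for *Mrps30* at p1 (-0.06 to 0.99) and *Klhl5* at e15.5 (-0.37 to 0.65). The smallest p1 library, library 3, had 11 proprioceptor wells and 4 *Efna5* UMIs. With *Gabrg1* the mean r of *Efna5* was 0.16 at e15.5 and 0.26 at p1, with *Tox* 0.13 and -0.01, and with *C1ql2*, a marker of abdominal proprioceptors in the study, -0.12 and -0.07. With *Epha7* it was -0.28 and -0.11, with *Epha3* -0.14 and 0.04, with *Epha4* 0.10 and 0.09, and with *Epha5* -0.05 and 0.03.

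*Efna3* at e15.5 varied most like *Strbp* (mean r 0.47), *Ankrd13b*, *Dnm3*, *Prmt2*, *Avil*, *Igsf9b* and *Tns1* (0.41 to 0.45), and *Efna2* most like *Osbpl9* (0.40), *Hectd4*, *Plec*, *Slitrk5*, *Fam13b*, *Tmem178b*, *Sptbn1* and *Dnajc11* (0.37 to 0.39). After thinning, the mean r was -0.11 to 0.19 for the *Efna3* genes and -0.02 to 0.12 for the *Efna2* genes. At p1 *Efna3* varied most like *Gm13339* (0.44), *mt-Nd1*, *Gnas*, *mt-Cytb*, *Gm10076*, *Gm29216*, *Golga7* and *Dctpp1* (0.41 to 0.42), a list with 2 mitochondrial genes. *Efna2* at p1, over 5 libraries, varied most like *Cdc27* (0.31), *Kdm3b*, *Gabarapl2*, *Gapvd1*, *R3hcc1l*, *Polr3c*, *Gm37897* and *Sugt1* (0.27 to 0.30). After thinning these values were -0.01 to 0.21 for *Efna3* and -0.02 to 0.19 for *Efna2*. *Efna2* and *Efna3* had a mean r of 0.19 at e15.5 and 0.22 at p1, and of -0.03 and 0.04 after thinning. *Efna3* and *Efna5* had a mean r of -0.20 and 0.07, and of -0.13 and -0.05 after thinning. With the receptors and markers named above, *Efna2* had mean r of -0.10 to 0.10 at e15.5 and -0.06 to 0.14 at p1, and *Efna3* of -0.12 to 0.15 and -0.01 to 0.20. The highest of these, *Efna3* with *Gabrg1* at p1 (0.20), was -0.02 after thinning, and *Efna3* with *C1ql2* at p1 went from 0.10 to -0.12.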

How the data were processed

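Single wells of dorsal root ganglion cells had been processed with CEL-Seq2, and the deposited tables hold the authors' UMI counts per gene and well for GRCm38 (mm10 in the processing notes), not normalized. According to the study's methods the R package scruff assigned reads to wells, mapped them and counted UMIs; neither the annotation version nor the use of strand is stated there. Wells with at least 10000 UMIs were classed by summed markers: neurons with at least 1000 CPM of *Avil*, *Isl1*, *Prph* and *Snap25* and under 3000 CPM of *Col1a1*, *Col1a2* and *Col3a1*; proprioceptors among them with at least 1000 CPM of *Pvalb*, *Runx3*, *Etv1* and *Ntrk3* and at least 100 CPM of *Pvalb* and *Runx3*; other sensory neurons below both limits; connective tissue with collagen at or above its limit and neuronal markers below theirs. These limits were set after seeing the markers' distributions, and members and gene lists were chosen with earlier results of these data known. No doublet caller was run; 6 proprioceptor and 4 connective tissue wells with at least 5 UMIs each of *Xist* and Y-linked genes were left out as an alternative.

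Counts were summed per library and class (at least 5 wells) and tested with edgeR 4.0.16 in R 4.3.3 (quasi-likelihood test, TMM, filterByExpr, Benjamini-Hochberg over all genes tested, threshold 0.05). DESeq2 1.42.0, no filter, deeper wells, larger sums, no glial wells, a library block and leaving out each library were alternatives, and no TMM, the *Xist* and Y-linked wells, stricter class limits, thinning and the *Efna5* share without each library were further alternatives chosen after seeing the data. Classes of 1 library deviated together (median r 0.250 over 14 pairs, lowest -0.0031; -0.0152 for different libraries), and share that library. Shares of wells were compared by exact permutation over libraries. Named genes were all ligands, the 3 largest called differences of the pathway list in each direction, every EphA receptor beside a receptor count, and for covariation the 8 highest mean r among genes in at least 20% of wells, of which 1 is not reported here. The edgeR script was tested on simulated data. Intervals are exact at 95% and cover counting error only.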

Additional observations from a re-analysis of the deposited data

Results flagged for a closer look

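In 27 groups of 4 to 10 libraries the highest or lowest library was compared with the gap to its nearest neighbor, and about 1 in 20 such groups is singled out by chance. In p1 proprioceptors *Efna2* was lowest in library 3, at 0 CPM, the library with the fewest wells. In e15.5 connective tissue *Efna1* was highest in library 4, at 22.3 CPM. In *Gabrg1*-leading wells *Efna5* was highest in e15.5 library 10, at 108.0 CPM, and lowest in p1 library 1, at 20.3 CPM. In the former, 1 well held 184 of the 211 UMIs. In *Tox*-leading wells of e15.5, library 7, with 6 such wells, was highest for *Efna2* (55.1 CPM), *Efna4* (5.62 CPM) and *Efna5* (46.1 CPM).

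The 3 wells of other sensory neurons at p1, all in library 2, entered no comparison. They held 79 UMIs of *Efna5*, or 487.7 CPM (exact Poisson interval 386.1 to 607.8), with no replicate.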

How the results depend on the processing

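Among 4 of 5 ligands the differences between proprioceptors and connective tissue kept their direction under every alternative, with *Efna3* at 1.89 to 2.47 and *Efna5* at -3.40 to -2.86 (log2). The fifth, *Efna2*, turned to 0.17 with no filter on low counts, 0.022 without TMM, 0.024 with sums of at least 10 wells, 0.0015 in wells of at least 20000 UMIs, 0.0082 without glial wells and 0.062 with the library as a block, and ranged from -0.068 to 0.057 without 1 library. None of these *Efna2* values passed. Against other sensory neurons 1 ligand in place of 2 passed after thinning, and 1 to 3 without 1 library; *Efna4* turned to -0.32 after thinning. For other sensory neurons against connective tissue 1 ligand in place of 3 passed after thinning, and 2 to 3 without 1 library. There *Efna2* turned to -0.081 and *Efna5* to -0.063 after thinning, and with stricter class limits *Efna1* turned to 0.24 and *Efna5* to -0.17; *Efna5* ranged from -0.020 to 0.69 without 1 library.

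Between the ages 3 to 4 ligands passed without 1 library. *Efna1* turned to -0.086 with no filter, -0.17 without TMM, -0.024 with sums of at least 10 wells and -0.14 without glial wells, and ranged from -0.24 to 0.33 without 1 library. The S numbers shared by libraries of the 2 ages are only numbers: same-numbered libraries had a median r of -0.181 (6 pairs), and with them as a replicate block *Efna5* was at 1.64. The share of wells had 1 called ligand in place of 2 in wells of at least 20000 UMIs and without glial wells, and 1 to 3 without 1 library. Without thinning *Efna1* turned to -5.11 and *Efna5* to -6.21 points, and for at least 2 UMIs to -1.76 and -9.86 points.

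Between *Gabrg1*-leading and *Tox*-leading wells at e15.5, 1 ligand in place of 0 passed with no filter, without glial wells and without wells holding *Xist* and Y-linked UMIs, and 0 to 1 without 1 library. *Efna3* turned to -0.016 without TMM, -0.037 without glial wells, -0.045 with stricter limits, -0.16 after thinning and -0.081 with the library as a block, and ranged from -0.045 to 0.15 without 1 library. At p1, 0 in place of 1 passed with the library as a block and after thinning, which left no ligand to test, and 0 to 1 without 1 library. *Efna2* turned to -0.024 without TMM, -0.35 with the block and -0.027 with DESeq2, and ranged from -0.23 to 0.27 without 1 library. The block also moved the call of *Efna2* against other sensory neurons and changed no other call; *Efna1* and *Efna4* could not be fitted with it between the ages, nor *Efna1* after thinning. Other causes of these changes were not tested. *Efna1* and *Efna4* rested on 47 and 74 UMIs in e15.5 and on 26 and 13 UMIs in p1 proprioceptors, which limits the precision of their levels.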
